A study of Mus musculus with 6 samples.

Results

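The 10 genes described here make, sense or destroy prostaglandins. They were chosen as genes of a pathway that glucocorticoids control, not by a rule on their measured values. Earlier results of these data were known when these genes were chosen. They are Pla2g4a, which releases the substrate, the cyclooxygenases Ptgs1 and Ptgs2, the terminal synthases Ptges, Ptgis and Ptgds, the receptors Ptger2, Ptger4 and Ptgfr, and the degrading enzyme Hpgd. All 10 were found among the 55401 genes of the count table, of which 29043 had at least 1 count. The samples were C3H10T1/2 cells, a mouse mesenchymal line that can be turned into bone, fat or muscle cells in culture. They carried a control hairpin (shControl), a hairpin against Nfib (shNFIB) or one against MLL1, encoded by Kmt2a (shMLL1). Nfib encodes a transcription factor of the nuclear factor I family and Kmt2a a histone methyltransferase. Cells of each line were taken untreated at day 0 and after 7 days in osteogenic medium, whose supplements were dexamethasone at 0.1 µM, which is a synthetic glucocorticoid, β-glycerophosphate at 20 mM and a phosphate form of ascorbic acid at 100 µg/mL. Each of the 6 conditions had 1 library, so a difference between a pair of conditions has no replicate check, and the time, the medium and its dexamethasone cannot be told apart.

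Prostaglandins are short-range lipid signals. Cytosolic phospholipase A2 frees arachidonic acid from membranes, a cyclooxygenase turns it into the common intermediate, and terminal synthases turn that into prostaglandin E2, D2, prostacyclin and others, which act on G protein-coupled receptors of neighbouring cells. In bone-forming cultures prostaglandin E2 acts on osteoblast precursors, and Ptgs2 is the inducible cyclooxygenase, which inflammatory signals raise and glucocorticoids repress, while Ptgs1 is commonly the constant one.

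Promoter sequences are shown for the 5 genes on which the results below turn, so that the letters next to each start site can be read beside the values. Each is 300 bases of GRCm38.p6 from RefSeq, 250 before and 50 after the start site, written 5′ to 3′ on the strand of the gene. Capitals mark the matches of 7 motifs, searched on both strands. These were the TATA box TATAAA, the cAMP response element TGACGTCA, the E-box CACGTG, the GC box GGGCGG, the nuclear factor I half-site TTGGC, its palindrome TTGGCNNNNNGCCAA and the glucocorticoid receptor half-site TGTTCT. The half-site TTGGC is contained in the palindrome.
Ptgs2, chr1:150099781-150100080, plus strand: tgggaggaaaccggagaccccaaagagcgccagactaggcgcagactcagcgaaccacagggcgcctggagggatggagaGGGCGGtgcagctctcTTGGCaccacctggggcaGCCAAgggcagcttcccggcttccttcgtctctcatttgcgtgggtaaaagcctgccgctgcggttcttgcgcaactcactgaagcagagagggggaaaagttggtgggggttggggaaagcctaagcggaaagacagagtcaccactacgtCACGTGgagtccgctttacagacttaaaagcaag
Ptgs1, chr2:36230176-36230475, plus strand: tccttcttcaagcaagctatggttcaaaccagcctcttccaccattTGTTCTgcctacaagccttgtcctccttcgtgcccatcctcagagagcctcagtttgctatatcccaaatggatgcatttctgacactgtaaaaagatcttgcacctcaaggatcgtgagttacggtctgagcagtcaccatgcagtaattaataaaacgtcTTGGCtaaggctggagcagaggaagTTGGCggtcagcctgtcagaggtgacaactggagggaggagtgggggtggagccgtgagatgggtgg
Pla2g4a, chr1:149961241-149961540, minus strand: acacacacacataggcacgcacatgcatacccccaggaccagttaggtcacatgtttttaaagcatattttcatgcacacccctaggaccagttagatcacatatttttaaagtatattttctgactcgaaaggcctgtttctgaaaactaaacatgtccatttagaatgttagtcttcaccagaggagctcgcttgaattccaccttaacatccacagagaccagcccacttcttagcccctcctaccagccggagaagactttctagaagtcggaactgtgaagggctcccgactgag
Ptger4, chr15:5244138-5244437, minus strand: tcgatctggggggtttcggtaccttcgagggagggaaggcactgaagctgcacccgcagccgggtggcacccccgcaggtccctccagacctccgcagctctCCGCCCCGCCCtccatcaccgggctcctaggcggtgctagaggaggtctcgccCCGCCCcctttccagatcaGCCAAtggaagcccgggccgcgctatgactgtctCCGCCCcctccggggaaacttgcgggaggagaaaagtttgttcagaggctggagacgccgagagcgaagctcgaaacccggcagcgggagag
Ptgfr, chr3:151837479-151837778, minus strand: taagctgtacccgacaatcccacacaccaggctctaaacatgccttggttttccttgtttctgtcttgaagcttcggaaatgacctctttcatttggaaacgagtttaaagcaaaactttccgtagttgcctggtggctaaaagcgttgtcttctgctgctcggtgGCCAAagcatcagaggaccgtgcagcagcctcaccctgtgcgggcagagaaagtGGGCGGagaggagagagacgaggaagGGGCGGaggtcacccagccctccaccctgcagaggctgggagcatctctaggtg

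In the Ptgs2 promoter the E-box began 17 bases into the transcript, a GC box began 170 bases before the start, and nuclear factor I half-sites of opposite orientation began 154 and 136 bases before it. The Ptgs1 promoter held nuclear factor I half-sites that began 42 and 17 bases before the start and a glucocorticoid receptor half-site 204 bases before it. The Ptger4 promoter held 4 GC boxes, the first pair of which share a base, and the Ptgfr promoter held 2. Each of these 2 receptor promoters also held 1 nuclear factor I half-site, and the Pla2g4a window shown held none of the 7 motifs. RefSeq gives Pla2g4a a second window (chr1:149922390-149922689), not shown, in which a glucocorticoid receptor half-site began 221 bases and a TATA box 200 bases before the start. Such short matches are common. Among 32851 promoters of the same length, 46.7% held the nuclear factor I half-site, 35.7% the GC box, 19.0% the glucocorticoid receptor half-site, 13.6% the TATA box, 7.15% the E-box, 1.79% the cAMP response element and 0.0365% the palindrome. The palindrome and the full cAMP response element TGACGTCA had no exact match in the windows of the 9 members with an entry. Shorter or variant forms of these motifs were not searched, so such elements may be present.

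In GENCODE annotation on GRCm38, the Pla2g4a gene (chr1:149829618-149961290, minus strand) and the Ptgs2 gene (chr1:150100031-150108227, plus strand) lie head to head, with their start sites 138741 bp apart. Ptgs1 is at chr2:36230426-36252272 on the plus strand. Ptges (chr2:30889471-30929863), Ptgis (chr2:167191805-167240604) and Ptgds (chr2:25466709-25470046) are on the minus strand of the same chromosome. The receptor genes are Ptger2 at chr14:44988195-45003820 (plus strand), Ptger4 at chr15:5206661-5244187 (minus strand) and Ptgfr at chr3:151796502-151837630 (minus strand). Hpgd lies at chr8:56294585-56321043 on the plus strand. The strand setting of the counting is not given in the sources used here, so reads of the genes that overlap Ptgs1, Ptgis, Ptger2, Ptger4 or Ptgfr on the other strand cannot be told apart from theirs. Pla2g4a overlaps the ribosomal RNA model n-R5s219 in the same way. The only protein-coding partner among these is Ttc33, looked up after the counts were seen, which overlaps the 3′ end of Ptger4 and stayed between 33.2 and 42.3 CPM (counts scaled to a common library size by the TMM method) in the 6 libraries. Ptges and Hpgd overlap a gene model on their own strand, and Ptgs2 and Ptgds overlap none.

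The libraries held between 21608680 and 34774066 counts, and a floor of 3 counts corresponded to 0.0939 to 0.123 CPM after TMM scaling. Nfib was at 116, 35.3 and 65.5 CPM in shControl, shNFIB and shMLL1 at day 0 and at 83.5, 8.15 and 72.7 CPM at day 7. It was lowest in shNFIB on both days. Kmt2a was at 74.7, 86.5 and 30.9 CPM at day 0 and at 66.3, 94.0 and 34.8 CPM at day 7, lowest in shMLL1 on both days. The 8 mesenchymal markers summed to between 6350 and 15800 CPM. Of 6 macrophage markers, Ptprc, Adgre1 and Itgam were at or under the floor in all libraries, and the list summed to 1.58 to 8.43 CPM. Cdh5 and Kdr were at or under the floor among 5 endothelial markers, which summed to 3.51 to 27.6 CPM. The 8 osteoblast markers summed to 1560 CPM in shControl at day 7, mostly Spp1, and to between 253 and 357 CPM in the others, with Ibsp at or under the floor everywhere. The 8 adipocyte markers summed to 131 CPM in shControl at day 7 and to between 18.2 and 93.4 CPM in the others. Among them, Adipoq was at or under the floor everywhere. The 5 smooth muscle markers were at 1270 to 1520 CPM at day 0 and 131 to 258 CPM at day 7. The 5 chondrocyte markers were at 81.5 to 411 CPM, with Acan and Matn1 at or under the floor in all libraries. In bulk RNA, fewer cells of a type and less RNA per cell cannot be told apart, and the part of these lists in the results below was not tested.

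Levels of the prostaglandin genes were compared between genes per kilobase of exon. Ptgs1 was the most abundant member in all 6 libraries, from 19.5 CPM per kb in shControl at day 7 to 111 CPM per kb in shNFIB at day 0. Pla2g4a, Ptgs2 and Ptgis followed in changing order, with 8.84 to 38.2, 1.48 to 33.8 and 5.65 to 15.8 CPM per kb, except that in shMLL1 at day 7 Ptgfr was at 2.18 and Ptgs2 at 2.07 CPM per kb. The receptors and the remaining enzymes were far lower, and none of them passed 2.18 CPM per kb in any library. Ptges, the inducible prostaglandin E synthase, had only 4 to 19 counts, Ptgds 0 to 20, Ptger2 8 to 27 and Hpgd 0 to 50, so that their neighbours in the order of levels mostly could not be separated within counting error. Of the 10 genes, 9 passed the expression filter of the test over all libraries, and Ptgds did not.

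**Figure D1:**
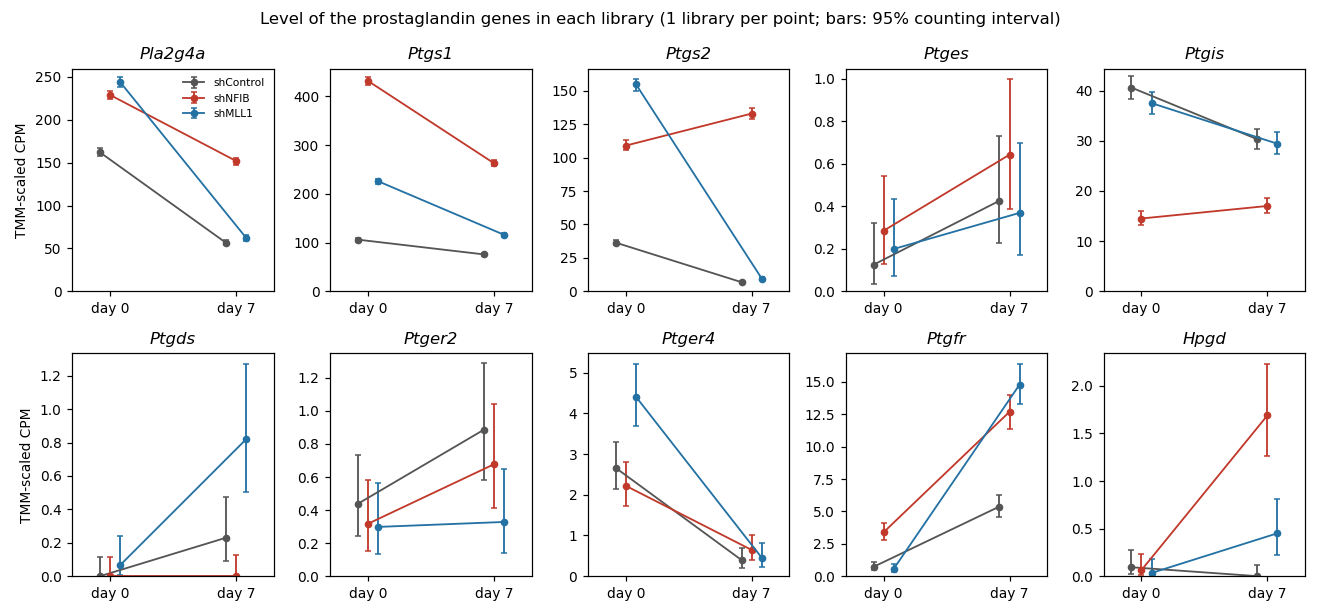
CPM after TMM scaling of the 10 genes in shControl (grey), shNFIB (red) and shMLL1 (blue) at day 0 and day 7. Each point is 1 library, bars are 95% counting intervals, and each panel has its own axis. The lines lie far apart for Ptgs2 at day 7, at 133 CPM in shNFIB against 6.76 in shControl and 9.47 in shMLL1.

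The first comparison asks how the genes differed between day 0 and day 7. In edgeR's quasi-likelihood fit with the line as a block, 1 of the 9 members tested was higher at day 7 (Ptgfr) and 3 were lower (Ptger4, Pla2g4a and Ptgs1). Their median log2 fold change was -0.18. Among all 16660 genes tested, 16.8% were higher, 16.6% were lower and the median was 0. When the libraries were scaled by size alone, day-effect values moved up by 0.13 log2 on average, and 60.8% of the calls over all genes were higher rather than 50.3%. The p-values measure only the spread between these libraries, which the labels do not tie to separate cultures.

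Within the lines, taken as pairs of single libraries with a fold over 2 as the limit, 6 of the 8 members with at least 10 counts in either library were past it in shControl, where 37.9% of all such genes were. In shNFIB 5 of 9 were past it, against 30.5% of all genes, and in shMLL1 6 of 8, against 45.6%. Ptger4 was lower and Ptgfr higher in each of the 3 lines. Pla2g4a and Ptgs2 were past 2-fold lower in shControl and shMLL1 and within it in shNFIB.

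**Figure D2:**
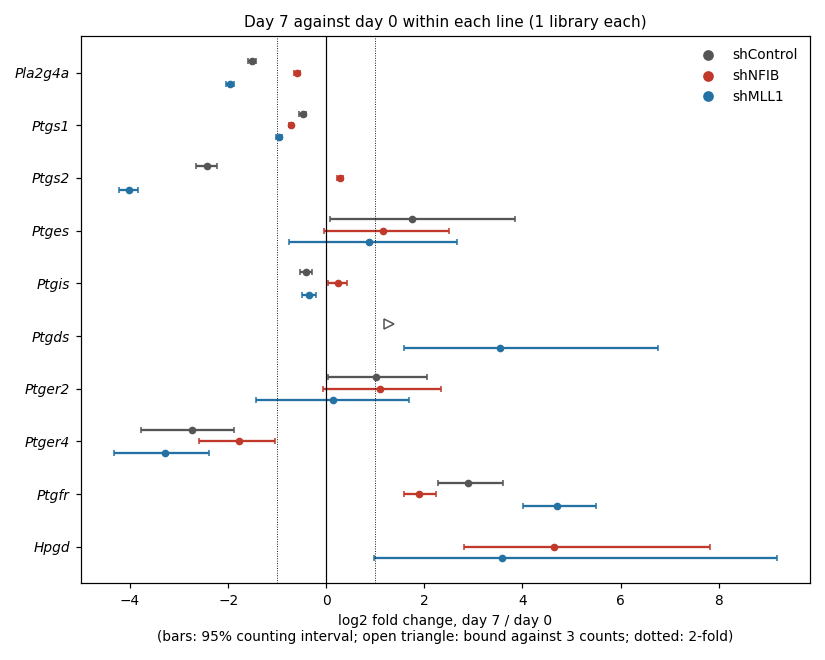
Log2 fold change of day 7 over day 0 for each gene within shControl (grey), shNFIB (red) and shMLL1 (blue), 1 library a side. Bars are 95% counting intervals, open triangles are bounds against 3 counts and dotted lines mark 2-fold. The 3 lines were on one side of 0 for Pla2g4a, Ptgs1, Ptger4 and Ptgfr and, on few counts, for Ptges and Ptger2. Ptgs2 ran from -4.03 in shMLL1 to 0.29 in shNFIB.

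Pla2g4a encodes cytosolic phospholipase A2, which supplies the arachidonic acid. Its level at day 0 was 162 CPM in shControl, 229 in shNFIB and 244 in shMLL1, and at day 7 it was at 56.5, 152 and 62.3 CPM. The days did not overlap, and at day 7 shNFIB was at more than 2-fold of the other lines. The gene fell by 1.36 on the log2 scale (SE 0.29, adjusted p = 0.014, edgeR quasi-likelihood test, n = 6 libraries). Without the shControl libraries the value was -1.33 and was no longer called (edgeR adjusted p = 0.0911, the highest over 8 alternatives, of which the lowest was 0.00016). The fold was 2.87 in shControl, 1.51 in shNFIB and 3.92 in shMLL1, all lower at day 7.

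Ptgs1 encodes the cyclooxygenase that most tissues carry at rest. Its level was 106, 432 and 226 CPM in shControl, shNFIB and shMLL1 at day 0 and 75.7, 263 and 116 CPM at day 7. The order of the lines was the same on both days, with shNFIB highest and shControl lowest. Each line was lower at day 7, by 0.48, 0.72 and 0.96 log2 in that order. Over the lines the gene fell by 0.72 log2 (SE 0.20, edgeR adjusted p = 0.0344), but this call was lost without any one of the lines, with adjusted p between 0.0621 and 0.151. It was also lost when libraries were scaled by size alone (edgeR adjusted p = 0.0598), and over 8 alternatives the value ran from 0.00752 to 0.372.

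Ptgs2, the inducible cyclooxygenase, varied most among the abundant members. It was at 36.4 CPM in shControl, 109 in shNFIB and 155 in shMLL1 at day 0. By day 7 shControl was at 6.76 CPM and shMLL1 at 9.47, on 206 and 231 counts, and shNFIB was at 133 CPM, on 3933 counts. The shControl and shMLL1 libraries of day 7 were below all of day 0, and the shNFIB library of day 7 lay within the range of day 0. The log2 fold change of day 7 over day 0 was -2.43 in shControl (95% counting interval -2.65 to -2.22), 0.29 in shNFIB (0.22 to 0.35) and -4.03 in shMLL1 (-4.23 to -3.84). Over the 3 lines it was -2.10 (SE 0.80) and not called (edgeR adjusted p = 0.0794). Without the shNFIB libraries it was -3.23 and called (edgeR adjusted p = 0.000863), and over 8 alternatives the adjusted p ran from 0.000759 to 0.509.

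The balance of the cyclooxygenases did not follow Ptgs2 alone. At day 0 shNFIB had more Ptgs2 than shControl but a lower ratio of Ptgs2 to Ptgs1. Per kilobase, the ratio of Ptgs2 to Ptgs1 was 0.292 in shControl, 0.214 in shNFIB and 0.581 in shMLL1 at day 0. At day 7 it was 0.0757 in shControl (95% counting interval 0.0653 to 0.0873), 0.429 in shNFIB (0.413 to 0.446) and 0.0693 in shMLL1 (0.0603 to 0.0792). Ptgs1 exceeded Ptgs2 in every library, by the least in shMLL1 at day 0 and by the most in shMLL1 and shControl at day 7, whose intervals overlap.

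Of the terminal synthases, only Ptgis, which makes prostacyclin, was well covered, with 458 to 1297 counts. It was at 40.6, 14.5 and 37.5 CPM in shControl, shNFIB and shMLL1 at day 0 and at 30.3, 17.0 and 29.4 CPM at day 7. The shNFIB line was lowest on both days, and the other two lay close together. The day effect was -0.18 log2 (SE 0.21, edgeR adjusted p = 0.528). Per kilobase, Ptgs1 exceeded Ptgis 1.72-fold in shControl, 19.7-fold in shNFIB and 3.98-fold in shMLL1 at day 0, and 1.65-, 10.2- and 2.60-fold at day 7.

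Ptges had 4, 9 and 6 counts in the 3 lines at day 0 and 13, 19 and 9 at day 7. Its day effect was 1.24 log2 (SE 0.59, edgeR adjusted p = 0.142), so a difference was not detectable at this depth. Ptgds, which makes prostaglandin D2, had 0, 0 and 2 counts at day 0 and 7, 0 and 20 counts at day 7. It was at or under the floor in 4 of the 6 libraries, and only the shMLL1 library at day 7 passed 10 counts.

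Among the receptors, Ptger4 and Ptgfr moved in opposite directions between the days. Ptger4, the EP4 receptor for prostaglandin E2, was at 2.66, 2.22 and 4.41 CPM in shControl, shNFIB and shMLL1 at day 0 and at 0.394, 0.643 and 0.451 CPM at day 7, on 11 to 19 counts. The days did not overlap. It fell by 2.58 log2 (SE 0.45, edgeR adjusted p = 0.00742), and stayed called without any one line, with edgeR adjusted p between 0.00448 and 0.04. Ptgfr, the receptor for prostaglandin F2α, was at 0.72, 3.39 and 0.563 CPM at day 0 and at 5.38, 12.7 and 14.8 CPM at day 7. Here the days did not overlap in the other direction. Ptgfr rose by 3.08 log2 (SE 0.55, edgeR adjusted p = 0.0078), with adjusted p between 0.00151 and 0.0258 without any one line. Ptger2, the EP2 receptor, had 14, 10 and 9 counts at day 0 and 27, 20 and 8 at day 7, with a day effect of 0.78 (SE 0.54, edgeR adjusted p = 0.288).

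Over the 9 prostanoid receptor genes, each library held 420 to 1316 counts, and their shares of the summed CPM per kb differed between days. Ptger4 made up 11.2%, 5.42% and 21.0% of it in shControl, shNFIB and shMLL1 at day 0 and 1.43%, 0.899% and 1.67% at day 7. Ptgfr went from 2.97%, 8.12% and 2.63% to 19.2%, 17.4% and 53.6%. Ptgir, the prostacyclin receptor, held the largest share in 5 libraries, between 44.5% and 71.9%, and 5.14% in shMLL1 at day 7, where it had 17 counts. Ptger1 held 6.80% to 33.1%. Ptger3, Ptgdr, Ptgdr2 and Tbxa2r had at most 15 counts in any library.

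**Figure D3:**
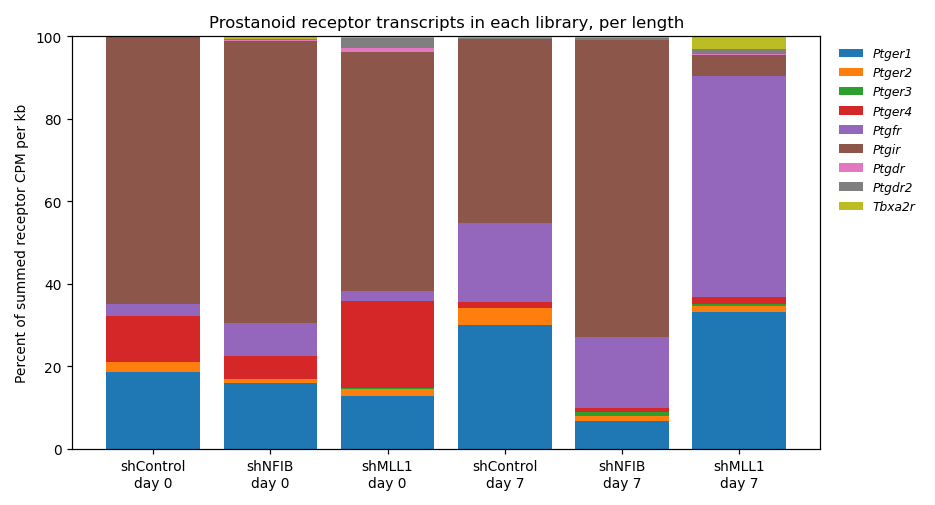
Share of each prostanoid receptor gene in the summed CPM per kb of 9 receptor genes, in percent, for the 6 libraries. Ptger4 shrinks from 5.42% to 21.0% at day 0 to 0.899% to 1.67% at day 7, and Ptgfr is the largest in shMLL1 at day 7, at 53.6%.

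Hpgd encodes the dehydrogenase that inactivates prostaglandins. It had 3, 2 and 1 counts in shControl, shNFIB and shMLL1 at day 0 and 0, 50 and 11 counts at day 7. Only the knockdown lines at day 7 stood above the floor, at 1.69 CPM in shNFIB and 0.451 CPM in shMLL1. The day effect was 2.75 log2 with a wide error (SE 1.32, edgeR adjusted p = 0.143). For the count of 0 in shControl at day 7, the floor of 3 counts, 0.0984 CPM, was put in its place. Against this floor Hpgd was 17.2-fold higher in shNFIB and 4.58-fold higher in shMLL1 on that day. These folds leave out the counting error of shControl and of the knockdown libraries, so the true folds may be smaller. The 95% counting intervals of the knockdown libraries were 1.26 to 2.23 and 0.225 to 0.807 CPM.

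The second comparison asks how the knockdown lines differed from shControl. Both knockdown lines are set against the same shControl libraries. The libraries of a line are its different days, not replicates of its hairpin. An effect of a hairpin therefore cannot be told apart from other differences between the lines. For shNFIB over both days, 1 of the 9 members tested was called, Ptgs1, where 0.378% of all genes (63 genes) were called in either direction. Ptgs1 was higher by 1.91 log2 (SE 0.26, edgeR adjusted p = 0.0467), and was called under each of the 5 alternative settings run for this effect, with adjusted p from 1.54e-08 with DESeq2 to 0.046. Without adjustment, 5 members (Pla2g4a, Ptgs1, Ptgs2, Ptgis and Ptgfr) and 2093 genes had p under 0.05 in this fit. Ptgs2 had the largest estimate, 3.37 log2, but differed between days (SE 0.93, edgeR adjusted p = 0.218), and Ptgis was at -1.15 (SE 0.26, edgeR adjusted p = 0.152). Without the shMLL1 libraries, Ptgs2 (2.87, edgeR adjusted p = 0.0469) and Ptgis (-1.20, edgeR adjusted p = 0.0488) were also called, and DESeq2 called Ptgs1 and Ptgis. Over 5 alternatives the adjusted p ran from 0.000123 to 0.225 for Ptgs2 and from 0.0103 to 0.14 for Ptgis.

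For shMLL1 over both days, edgeR called none of the 9 members, where it called 0.03% of all genes (5 genes). Only Ptgs1 had an unadjusted p under 0.05, as had 1555 genes, with a value of 0.85 log2 (SE 0.25, edgeR adjusted p = 0.319). DESeq2 called no member either, among 408 genes called.

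Taken day by day as single libraries, shNFIB was past 2-fold of shControl at day 0 in 4 of 7 members, with 13.6% of all genes past it. Ptgs1 was 4.08-fold, Ptgs2 2.99-fold and Ptgfr 4.69-fold higher, and Ptgis 2.80-fold lower. At day 7, 5 of 9 members were past 2-fold, all higher in shNFIB, and 21.3% of all genes were. These were Ptgs2 at 19.7-fold (95% counting interval 4.10 to 4.51 log2), Ptgs1 at 3.47-fold, Pla2g4a at 2.68-fold, Ptgfr at 2.36-fold and Hpgd. Ptgis was 1.78-fold lower.

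For shMLL1, Ptgs2 was 4.24-fold and Ptgs1 2.13-fold higher than in shControl at day 0, which were 2 of 7 members, with 20.4% of all genes past 2-fold. At day 7, 4 of 10 members were, with 15.5% of all genes. They were Ptgfr, 2.74-fold higher on 360 counts, and the low genes Ptgds (3.52-fold higher), Hpgd (higher) and Ptger2 (2.68-fold lower), each with at most 27 counts. Ptgs2 and Ptgs1 were 1.40- and 1.53-fold higher on that day.

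**Figure D4:**
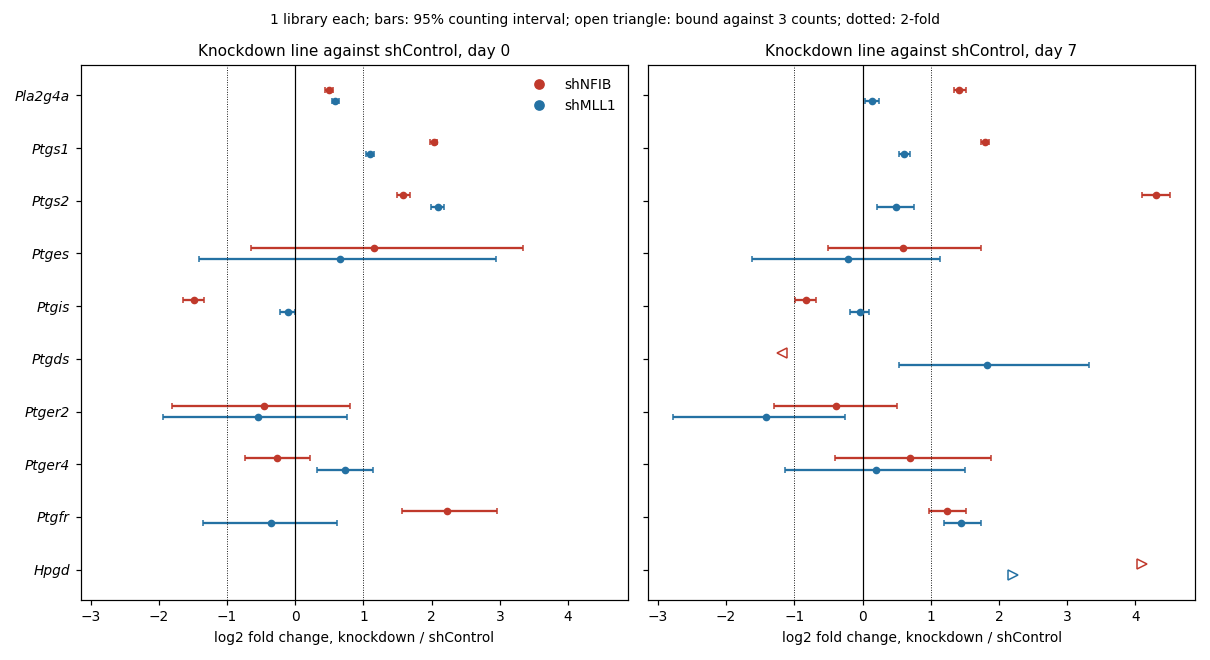
Log2 fold change of shNFIB (red) and shMLL1 (blue) over shControl at day 0 (left) and day 7 (right), 1 library a side. Bars are 95% counting intervals, open triangles are bounds against 3 counts and dotted lines mark 2-fold. Ptgs2 is higher in both knockdown lines at day 0, and at day 7 it is at 4.30 in shNFIB and 0.49 in shMLL1.

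The difference between the day responses of the lines was taken gene by gene, with counting intervals only. Of 8 members with a value, 1 (Ptgs2) had a day response in shNFIB more than 2-fold away from that in shControl, where 23.5% of all genes had. That of Ptgs2 was 2.72 log2 above the response of shControl (95% counting interval 2.49 to 2.94), and 50 of 9910 genes with a level of at least 10 CPM had a larger positive difference. Pla2g4a was at 0.93 (0.83 to 1.02), Ptgfr at -0.99 (-1.69 to -0.29) and Ptger4 at 0.96, with an interval that includes 0 (-0.17 to 2.10). For shMLL1 against shControl, 2 of 8 members were past 2-fold, with 28.8% of all genes past it. Ptgs2 was at -1.60 (-1.89 to -1.31) and Ptgfr at 1.81 (0.86 to 2.75). With 1 library per condition these differences could not be tested.

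Beyond the 10, another 27 genes of the pathway were followed, and 19 were tested. At day 7, 3 were higher and 4 lower, which is 36.8% of them against 33.3% of all genes tested. The higher ones were the phospholipases Pla2g6 (0.92 log2, SE 0.19) and Pla2g15 (1.16, SE 0.18) and the prostaglandin uptake carrier Slco2a1 (1.97, SE 0.53), which had 6 to 60 counts. The lower ones were Ptges3 (-0.91, SE 0.28), a prostaglandin E synthase that is also a chaperone partner, Akr1b3 (-1.39, SE 0.30), an aldose reductase that can make prostaglandin F2α, the receptor inhibitor Ptgfrn (-1.12, SE 0.24) and the reductase Ptgr1 (-1.27, SE 0.20). Their edgeR adjusted p-values ran from 0.00476 to 0.0417, and DESeq2 called the same 7 genes. In the leukotriene branch, 3 of 8 genes were tested and 1 was lower, Alox5ap (-2.07, SE 0.45). Alox5 and Alox15 were at or under the floor in all libraries.

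**Figure D5:**
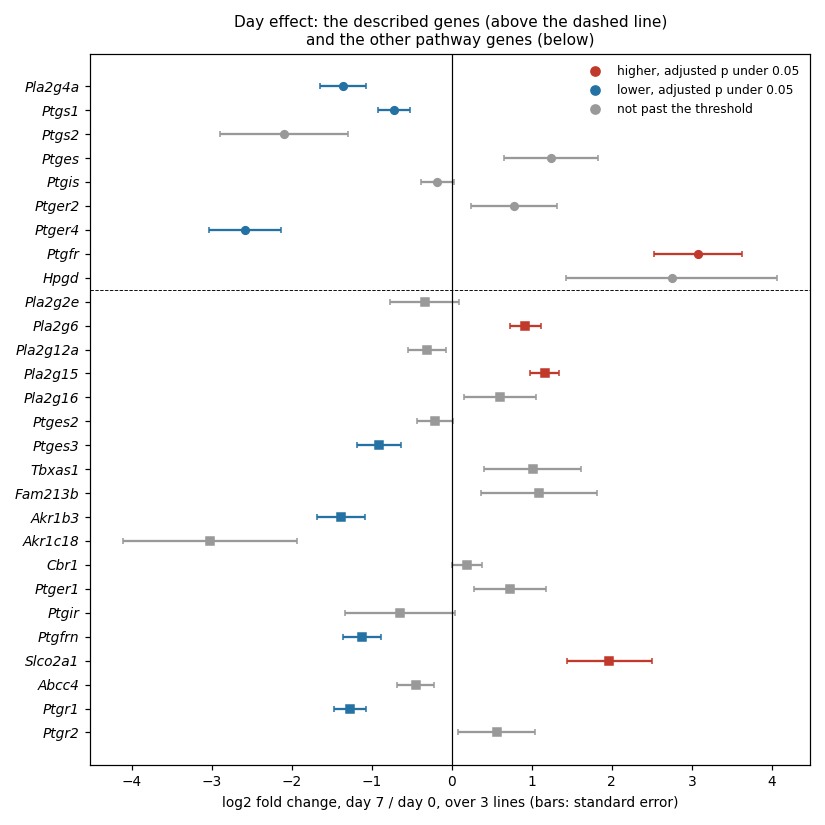
Day effect of edgeR's quasi-likelihood fit over the 3 lines, as log2 fold change with its standard error, for the 9 tested members (circles) and 19 other pathway genes (squares). Red marks genes called higher at day 7, blue genes called lower and grey those not past the threshold. Ptger4 (-2.58) and Ptgfr (3.08) are at opposite ends of the called members.

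In shNFIB over both days, 1 of these 19 genes was called, Ptgr2, a reductase that acts downstream of Hpgd. It had 129 and 114 counts in shControl, 1 and 3 in shNFIB and 24 and 41 in shMLL1 at day 0 and day 7. Its fitted difference was -5.87 log2 (SE 0.70, edgeR adjusted p = 0.0359), which depends on the prior count. Fam213b, a prostamide and prostaglandin F synthase, ran alongside with 43 and 85 counts in shControl, 0 and 4 in shNFIB and 4 and 3 in shMLL1, and was called for shNFIB by DESeq2 but not by edgeR (edgeR adjusted p = 0.104). Ptgir had 246, 442 and 184 counts at day 0 and 187, 762 and 17 at day 7 in shControl, shNFIB and shMLL1. At day 7 it was 4.20-fold higher in shNFIB and 8.75-fold lower in shMLL1 than in shControl. For shMLL1, edgeR called none of the 19, of which 2 had an unadjusted p under 0.05, and DESeq2 called Fam213b.

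Since the medium held dexamethasone, 14 genes of the glucocorticoid response were set beside the members. At day 7, 10 were higher and 1 lower, with a median of 1.87 log2, where 16.8% of all genes tested were higher and 16.6% lower. Fkbp5, a chaperone of the receptor, was at 25.4, 29.5 and 18.8 CPM in shControl, shNFIB and shMLL1 at day 0 and at 273, 422 and 414 CPM at day 7 (3.91 log2, SE 0.28, edgeR adjusted p = 0.000496). Tsc22d3 was higher by 3.19 log2 (SE 0.32, edgeR adjusted p = 0.00104). The one lower gene was Nr3c1, the receptor itself, at 145, 172 and 108 CPM at day 0 and 44.5, 102 and 74.3 CPM at day 7. In the single-library pairs 10 of the 14 genes were more than 2-fold higher at day 7 in shControl, 11 in shNFIB and 10 in shMLL1. Of all genes, 37.9%, 30.5% and 45.6% were past 2-fold in either direction in these pairs. The part of the glucocorticoid response in the levels of Ptgs2 was not tested.

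Genes of the inflammatory response, many of which are induced along with Ptgs2, showed 1 higher and 1 lower of 11 tested at day 7, with a median of -0.53 log2. The lower one was Nos2 (-5.59, SE 0.99) and the higher one the matrix protease Mmp3 (4.21, SE 0.83). Among all genes tested, 33.3% were called for the day in either direction. Il6 was at 1.41, 2.95 and 11.7 CPM in shControl, shNFIB and shMLL1 at day 0 and at 0.394, 1.49 and 0.164 CPM at day 7. Lif was at 2.38, 2.69 and 8.91 CPM and then at 0.623, 1.86 and 0.328 CPM. In Ptgs2, shMLL1 was the highest library of day 0 and shNFIB the highest of day 7. This order, looked for after the values were seen, was found in 7 of the 11 inflammatory genes (Il6, Lif, Ccl2, Ccl7, Cxcl1, Nos2 and Mmp13), not in Cxcl5, Icam1, Vcam1 or Mmp3, and in 9.92% of all genes tested. The order rests on single libraries, and at day 7 Il6 in shMLL1, at 0.164 CPM, was near the floor of 0.123 CPM. Of the 15 inflammatory genes listed, 10 had at least 10 counts in shNFIB or shControl at day 7. Not all of the 11 tested genes were thus well covered on that day. The day changes differed from that of Ptgs2 for several of the inflammatory genes. Cxcl5, Mmp3 and Mmp13 were more than 2-fold higher at day 7 in shControl, and Nos2 was more than 2-fold lower at day 7 in shNFIB. Il6 and Lif were not called for the day by edgeR (adjusted p = 0.0669 and 0.0644), and both were by DESeq2. Il1b, Tnf and Cxcl2 were at or under the floor in all libraries. Of 9 tested genes that cAMP induces, the route by which EP2 and EP4 signal, 3 were higher (Nr4a1, Sik1 and Fosb) and 1 lower (Nr4a2) at day 7. Together 4 of the 9 were called, against 33.3% of all genes tested. For shNFIB and for shMLL1, edgeR called no gene of the glucocorticoid, inflammatory, cAMP or leukotriene lists. Of those genes, 37 were tested, and 8 had an unadjusted p under 0.05 for shNFIB and 6 for shMLL1. Of all 16660 genes tested, 2093 and 1555 had. DESeq2 called Dusp1 and Vcam1 for shNFIB and none for shMLL1.

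A pair of noncoding genes flank Ptgs2, chosen for description after their values were seen. Ptgs2os starts 68 bp from the Ptgs2 start site on the opposite strand (chr1:150074873-150099963), and Ptgs2os2 is a long noncoding RNA gene that lies 50816 bp past the end of Ptgs2 (chr1:150159043-150164948, minus strand). Ptgs2os had 47, 67 and 67 counts in shControl, shNFIB and shMLL1 at day 0 and 4, 30 and 18 at day 7. Ptgs2os2 had 139, 566 and 901 counts at day 0 and 11, 80 and 11 at day 7. Both were lower at day 7, with log2 fold changes of -1.86 (SE 0.55, edgeR adjusted p = 0.0382) and -3.98 (SE 0.63, edgeR adjusted p = 0.00528). In shNFIB, Ptgs2os2 was 6.61-fold lower at day 7, while Ptgs2 was 1.22-fold higher.

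The genes whose levels ran most like each member over the 6 libraries were listed as a description, by Pearson's r of log2(CPM + 1) among 9909 or 9910 genes with a mean of at least 10 CPM. With only 6 libraries that share days and lines, high values are common. For Ptgs2 the closest were Wdr75 (0.988), Tinagl1 (0.987) and Imp3 (0.985), and 66 genes passed 0.95. For Ptgs1 they were Acvr2a (0.99), Poc5 (0.981) and Mpp1 (0.980), with 14 genes past 0.95. For Ptgis they were Dhodh (0.969), Gm6563 (0.968) and Lage3 (0.965), with 7. Pla2g4a, Ptger4 and Ptgfr had 270, 337 and 113 genes past 0.95, led by Arl8b (0.997), Eef1d (0.998) and Tgfbr3 (0.998). Ptgs1 and Ptgis thus had the fewest genes with a pattern so close to theirs.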

How the data were processed

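RNA-seq of 6 conditions of C3H10T1/2 cells was analysed, 1 library per condition. The authors used Trimmomatic 0.39 to trim paired reads and HISAT2 2.2.1 to align them to GRCm38 (mm10). They filtered by mapping quality with SAMtools 1.12, removed PCR duplicates with a tool they do not name, and counted per gene with htseq-count 0.11.1. The deposited values are raw counts per Ensembl gene. The annotation release and strand setting are not given in the sources used here, and the labels name no batch. Reads removed as duplicates or multi-mapped lower the counts of abundant and duplicated genes.

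Day, shNFIB and shMLL1 effects came from a model of line and day fitted to all 6 libraries by the quasi-likelihood test of edgeR 4.0.16 under R 4.3.3. Counts were scaled by TMM, genes were kept by filterByExpr (16660 genes), p-values were adjusted by Benjamini-Hochberg over all of them, and the threshold was 0.05. This test needs a spread, which comes from the differences between lines that the terms do not explain (2 residual degrees of freedom, BCV 0.281). Both days of a line come from the same derivative, which pairs them, and the correlations of their deviations were 0.427 for shControl, 0.429 for shNFIB and 0.274 for shMLL1. The 7 pairs of single libraries were described without a test, among genes with at least 10 counts in either library, by a fold over 2, a prior count of 0.125 and exact Clopper-Pearson intervals of 95%. These intervals and the floor of 3 counts cover counting error only. Gene positions and exon lengths came from GENCODE M21, in which 55141 of the 55401 IDs had an entry. Promoters came from RefSeq, in which 9 of the 10 members had an entry and Ptgis had none.

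In simulated counts at a BCV of 0.28, 200 well-covered genes were changed by 2 log2 up or down. Of these, 199 were called for the day effect (16185 genes) and 184 for the shNFIB effect (16186 genes). The median estimate of the genes set to rise was 2.07 log2 for the day and 1.92 log2 for shNFIB. Among the unchanged genes, 11 were called for the day and 6 for shNFIB. Recovery of smaller differences, of genes with few counts and of day responses that differ between lines was not tested. The alternatives were DESeq2's size factors, library size alone, all genes with a count, the test of DESeq2 1.42.0, no line block, each line left out, a prior count of 2, a minimum of 50 counts and an exact test at an assumed BCV of 0.2. Figures were drawn with matplotlib 3.10.9 and intervals computed with scipy 1.17.1.

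The members and lists were chosen with earlier results of these data known. The genes named are the 10 members, the hairpin targets and genes of the lists that passed a test or a fold over 2 or are counterparts of a member. Genes most like a member were sought for members with a mean of at least 1 CPM. The closest 3 are named for Ptgs2, Ptgs1 and Ptgis, and the closest 1 for each of Pla2g4a, Ptger4 and Ptgfr. Defining genes of a list that were at or under the floor are named too. Ttc33, Ptgs2os and Ptgs2os2 were picked once their values were known.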

Additional observations from a re-analysis of the deposited data

Results flagged for a closer look

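In Ptgs2 the day 7 library was lower than the day 0 library in shControl (log2 fold change -2.43) and in shMLL1 (-4.03) and higher in shNFIB (0.29), so that shNFIB moved the opposite way from either of the other lines. Ptgis showed the same split at a smaller size, with -0.42 in shControl, -0.35 in shMLL1 and 0.23 in shNFIB. Each value rests on 1 library a side, and these differences between lines were not tested.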

How the results depend on the processing

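Of 420 member values recomputed under the alternatives, 394 kept their call or their side of the 2-fold limit. Of these, 1 changed sign, Ptgis in shMLL1 against shControl at day 7, from -0.04 to 0.06 log2 with library size alone. The call of Ptgs1 for shNFIB and those of Ptger4 and Ptgfr for the day were kept under every alternative run for them. Without the line block, the members called for the day went from 4 to 2 (Ptger4 and Ptgfr). Leaving out a line gave 2043 to 4813 genes called for the day against 5556, with the lowest count without shControl. The line effects depended most on the settings. For shNFIB, 63 genes were called, against 688 when all genes with a count were fitted, 615 with DESeq2 and 533 without shMLL1, and the 1 member called became 4 (Ptgs1, Ptgs2, Ptgis and Ptgfr), 2 (Ptgs1 and Ptgis) and 3 (Ptgs1, Ptgs2 and Ptgis). For shMLL1, 5 genes were called, against 526, 408 and, without shNFIB, 183. The cause was not tested. A minimum of 50 counts, which leaves fewer genes, gave 4081, 3081 and 5160 genes past 2-fold for the day in shControl, shNFIB and shMLL1 (against 6366, 4950 and 7773), 1032 and 1696 for shNFIB and shMLL1 against shControl at day 0 (2135 and 3275), and 1916 and 1173 at day 7 (3561 and 2626). The members past 2-fold then fell to 3 for the day in shNFIB and to 1, Ptgfr, for shMLL1 at day 7. The exact test at an assumed BCV of 0.2 called 781 and 1564 genes at day 0 and 1607 and 951 at day 7 for the line pairs. Its member counts were 3 for the day in shNFIB (Ptger4, Ptgfr and Hpgd), 1 for shMLL1 at day 0 (Ptgs2) and 2 for shMLL1 at day 7 (Ptgfr and Hpgd). Library size alone moved pairs by up to 0.21 log2, the most for the day in shMLL1, the shallowest library. With 27 counts or fewer, Ptges, Ptgds and Ptger2 are limited by depth, and a single library per condition limits all pairs.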
